A study of Mus musculus with 14 samples.

Results

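The simple epithelial keratins measured here were Krt7, Krt8, Krt18 and Krt19, 4 of the 22026 genes in the RNA tables and 4 of the 52 genes whose symbol is Krt and a number. Krt8, Krt18 and Krt19 had been picked because they were listed at 0 in the wildtype fibroblast library, present in the AID-null fibroblast library and high at 3 weeks. Krt7 is taken with them as a keratin of the same kind of tissue. The RNA values that made this choice are given below as a description, with no test.

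Keratins are intermediate filament proteins that assemble only as pairs of a type II and a type I chain. Krt7 and Krt8 are type II keratins, and Krt18 and Krt19 are type I keratins. Krt8 and Krt18 form the basic pair of one-layered epithelia and are among the first keratins made in the mouse embryo, in trophoblast and other early epithelial cells. Krt7 and Krt19 are added in ducts, glands and other simple epithelia, while dermal fibroblasts build their filaments mainly from vimentin. Reprogramming of fibroblasts passes through a change to an epithelial state, in which cell junctions and keratins appear, so these genes are read as marks of that change.

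The samples were mouse tail fibroblasts labelled AID-null or wildtype. RNA was sequenced in 4 libraries, which were an AID-null and a wildtype culture 3 weeks into reprogramming by ectopic Oct4, Sox2, Klf4 and cMyc, and AID-null and wildtype fibroblasts without those factors. CpG methylation was profiled in 10 libraries by reduced representation bisulfite sequencing (RRBS), an assay of CpG-rich DNA next to restriction sites. These were 1 fibroblast and 1 3-week culture of each genotype, and 3 clones of each genotype picked at week 2 and collected after 3 weeks. The labels give neither age nor sex nor strain, and they do not say how the null allele was made, how the factors were delivered, or whether clones or cultures came from separate animals.

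"AID-null" and "wildtype" below stand for the labels of the libraries. The Y-linked gene Eif2s3y was at 274 FPKM in the AID-null 3-week library and listed at 0 in the wildtype one, and at 184 FPKM in AID-null and 0 in wildtype fibroblasts. The X-linked gene Xist went the other way. It was at 1.78 FPKM in the AID-null and 149 FPKM in the wildtype 3-week library, and at 0.990 FPKM in AID-null and 456 FPKM in wildtype fibroblasts. Each comparison by genotype is therefore also one between cells that differ in Y-linked RNA and in Xist, and these cannot be told apart. On the labelled cell type, all 20 fibroblast and mesenchymal markers reached 1 FPKM in each library, and they summed to 106872 FPKM in AID-null and 96950 FPKM in wildtype fibroblasts.

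RefSeq start sites place Krt7, Krt8 and Krt18 on chromosome 15, within the type II keratin cluster. Krt18 is the one type I gene there and lies directly beside Krt8, its type II partner. Krt7 lies between Krt80 and Krt87. Krt19 lies on chromosome 11 between Krt15 and Krt9, in the type I cluster. The 250 bases before the start sites of the first 3 are shown because the methylation values below come from the surroundings of these sites. They are from RefSeq on GRCm38.p6, at chr15:101412153-101412402 on the plus strand for Krt7, chr15:102004343-102004592 on the minus strand for Krt8 and chr15:102027966-102028215 on the plus strand for Krt18. Each is printed 5′ to 3′ on the strand of its gene, and capitals mark CpG dinucleotides, the bases whose methylation was measured.
Krt7: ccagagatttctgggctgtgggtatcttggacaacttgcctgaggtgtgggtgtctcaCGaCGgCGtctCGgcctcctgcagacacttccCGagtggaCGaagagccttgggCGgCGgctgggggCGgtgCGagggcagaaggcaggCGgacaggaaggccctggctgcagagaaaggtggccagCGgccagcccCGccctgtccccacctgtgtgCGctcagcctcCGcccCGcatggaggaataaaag
Krt8: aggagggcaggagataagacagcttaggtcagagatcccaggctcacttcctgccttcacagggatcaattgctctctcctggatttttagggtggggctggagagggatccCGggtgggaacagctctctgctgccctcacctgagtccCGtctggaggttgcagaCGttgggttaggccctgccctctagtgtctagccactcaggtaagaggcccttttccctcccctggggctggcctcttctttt
Krt18: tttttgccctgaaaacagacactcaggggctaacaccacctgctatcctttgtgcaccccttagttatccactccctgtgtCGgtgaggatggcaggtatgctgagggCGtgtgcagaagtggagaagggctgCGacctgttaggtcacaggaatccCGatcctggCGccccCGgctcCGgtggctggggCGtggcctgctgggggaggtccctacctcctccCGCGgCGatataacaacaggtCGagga

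The 3 upstream sequences differed most in CpG content. Krt7 held 16 CpGs, Krt8 held 3 and Krt18 held 12, against a median of 6 over the 32851 promoters of the table. The sequence CACCTG, an E-box of the kind bound by Snail and Zeb repressors, was searched on both strands and occurred once in each. Its first base lay 44 bases before the start in Krt7, 111 before it in Krt8 and 214 before it in Krt18, and 17.2% of all promoters hold it. The GC box GGGCGG occurred 4 times in Krt7 and was not found in the Krt8 and Krt18 windows, and 32.7% of promoters hold it. TATAAA, held by 12.4% of promoters, the AP-1 site TGANTCA, held by 6.75%, and the octamer ATTTGCAT, held by 1.60%, were not in these windows. A match describes letters only.

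In fibroblasts, the 4 keratins had values in the AID-null library, while 3 of them were listed at 0 and Krt7 was low in the wildtype library. Krt18, the type I partner of Krt8, was at 34.1 FPKM in AID-null fibroblasts and listed at 0 in wildtype fibroblasts. Krt19, the short type I keratin of ducts, was at 29.5 FPKM in AID-null fibroblasts and listed at 0 in wildtype fibroblasts. Krt8 was at 28.1 FPKM in AID-null fibroblasts and listed at 0 in wildtype fibroblasts. These 3 levels were close to each other, and each was above 36.2% to 41.1% of the 13589 genes that reached 1 FPKM in AID-null fibroblasts. Krt7, a type II keratin of ducts and glands, was at 10.8 FPKM in AID-null fibroblasts and 1.14 FPKM in wildtype fibroblasts, a 9.44-fold ratio and a difference of 2.46 on the log2(FPKM + 1) scale. The wildtype value of Krt7 was near the bottom of what was detected, above 0.770% of the genes at 1 FPKM or more. With 1 library per group no spread between cultures is known, and no test was made. In bulk RNA, fewer cells of a type and less RNA per cell cannot be told apart.

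Counted as at least 2-fold higher on the log2(FPKM + 1) scale, among genes with 1 FPKM or more in either library, all 4 keratins were higher in AID-null than in wildtype fibroblasts, and 3 with a pseudocount of 10, under which the Krt7 difference was 0.90. Of the 13788 genes compared, 4.26% were that much higher and 1.34% that much lower. Since 3 of the 4 were chosen on this contrast, nothing is read from their count. An FPKM of 0 in a table without counts can also be a failed estimate, and reads of keratin genes can be shared with near-identical family members and pseudogenes. None of 20 housekeeping genes was listed at 0 in any library.

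**Figure D1:**
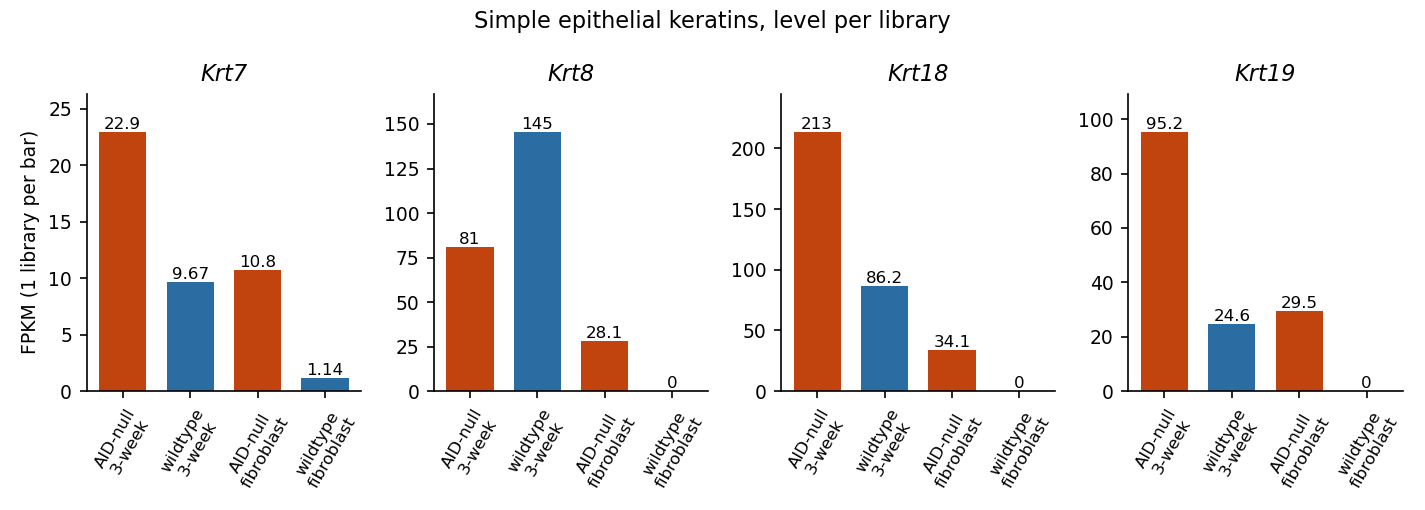
FPKM of Krt7, Krt8, Krt18 and Krt19 (vertical axis, linear, a scale of its own for each gene) in the AID-null and wildtype 3-week cultures and the AID-null and wildtype fibroblasts, with 1 library per bar and so no error. Krt8 is the 1 keratin whose bar is higher in the wildtype 3-week culture (145) than in the AID-null one (81.0), and the wildtype fibroblast bars are at 0 or 1.14.

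The genes that share the pattern used for the choice are given as a description, and nothing about the keratins is read from their number. Of 7953 genes listed at 0 in wildtype fibroblasts, 9 reached 28.06 FPKM, the Krt8 level, in AID-null fibroblasts. Besides Krt8, Krt18 and Krt19 these were the Y-linked Ddx3y, Eif2s3y, Kdm5d and Uty, the bilirubin-conjugating enzyme gene Ugt1a1 and the microRNA gene Mir3074-1. Mir3074-1 was at 279 FPKM in AID-null fibroblasts and listed at 0 in the other 3 libraries. Ugt1a1 was at 33.4 FPKM in AID-null fibroblasts and 0.320 and 0.240 FPKM in the AID-null and wildtype 3-week libraries. Just below the threshold lay the myoglobin gene Mb at 26.8 FPKM and Wfdc2, a secreted epithelial protein, at 14.1 FPKM in AID-null fibroblasts.

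At 3 weeks the 4 keratins were detected in both genotypes, and their order differed. Krt18 was at 213 FPKM in the AID-null culture and 86.2 FPKM in the wildtype culture. Krt19 was at 95.2 FPKM in the AID-null culture and 24.6 FPKM in the wildtype culture. Krt8 was at 81.0 FPKM in the AID-null culture and 145 FPKM in the wildtype culture. Thus 3 of the 4 were higher in the AID-null culture, and Krt8 was lower. Krt7 was at 22.9 FPKM in the AID-null culture and 9.67 FPKM in the wildtype culture, the lowest of the 4 in both.

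On the log2(FPKM + 1) scale the difference of the AID-null from the wildtype 3-week culture was 1.91 for Krt19, 1.30 for Krt18 and 1.16 for Krt7, and it was -0.83 for Krt8. As FPKM ratios these were 3.87 for Krt19, 2.47 for Krt18, 2.37 for Krt7 and 0.558 for Krt8. Counted at 2-fold, 3 of 4 were higher and 0 lower, while 9.76% of 15204 genes were higher and 11.5% lower. The median of all genes was -0.18 here and 0.02 after median-of-ratios scaling. Under that scaling 1920 genes were higher and 1200 lower, against 1484 higher and 1755 lower without it, so the balance of all genes in this comparison depends on the scaling. The signs of the 4 keratins did not. With a pseudocount of 10 the Krt7 difference was 0.74, and 2 of 4 keratins were counted as higher. Under median-of-ratios scaling the differences were 2.11 for Krt19, 1.50 for Krt18, 1.36 for Krt7 and -0.63 for Krt8.

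Against fibroblasts of the same label, each keratin was at least 2-fold higher at 3 weeks, Krt7 with a pseudocount of 1 but not of 10. In AID-null cells the ratio of the 3-week culture to fibroblasts was 6.25 for Krt18, 3.23 for Krt19, 2.89 for Krt8 and 2.13 for Krt7. Krt18 thus differed most between the stages, by 2.61 on the log2(FPKM + 1) scale, and Krt7 least, by 1.02. In wildtype cells Krt7 was 8.48-fold higher in the 3-week culture than in fibroblasts, a difference of 2.32. No fold was formed for Krt8, Krt18 and Krt19 in wildtype cells, where they were listed at 0 in fibroblasts. Of all genes compared, 21.3% of 15076 were at least 2-fold higher at 3 weeks in AID-null cells and 27.0% of 15196 in wildtype cells. The rule used high values at 3 weeks, so these counts are also descriptions, and the comparisons share libraries with each other.

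Since type II and type I chains pair in equal amounts, the balance of their RNA was also taken. FPKM is a level per transcript length, so levels of different genes can be set side by side. The type II pair Krt7 and Krt8 summed to 104 FPKM in the AID-null 3-week culture, 155 FPKM in the wildtype 3-week culture and 38.8 FPKM in AID-null fibroblasts. The type I pair Krt18 and Krt19 summed to 308 FPKM in the AID-null 3-week culture, 111 FPKM in the wildtype 3-week culture and 63.6 FPKM in AID-null fibroblasts. The ratio of type II to type I was 0.337 in the AID-null 3-week culture, 1.40 in the wildtype 3-week culture and 0.610 in AID-null fibroblasts. Within these pairs, type I RNA was therefore in excess in both AID-null libraries, and type II RNA in the wildtype 3-week library. Other epithelial keratins in the wildtype 3-week library summed to 227 FPKM for type I and 143 FPKM for type II. With them included, type II RNA was not in excess there. In AID-null cells they summed to 47.8 FPKM for type I and 3.46 FPKM for type II at 3 weeks. In AID-null fibroblasts the sums were 12.7 and 2.41 FPKM. For Krt8 over Krt18 alone the ratio was 0.380 in the AID-null 3-week culture, 1.68 in the wildtype 3-week culture and 0.822 in AID-null fibroblasts. In both AID-null libraries the order of levels was Krt18, Krt19, Krt8 and Krt7. In the wildtype 3-week library it was Krt8, Krt18, Krt19 and Krt7. With 1 library each, no neighbours in these orders can be said to differ beyond a spread.

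**Figure D2:**
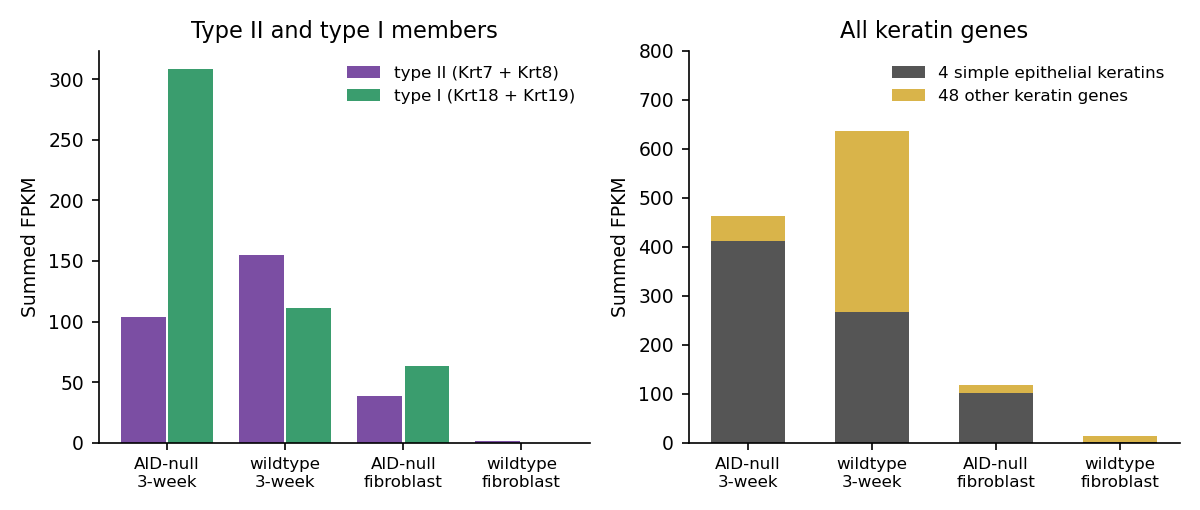
Left, summed FPKM (vertical axis) of the type II keratins Krt7 and Krt8 and of the type I keratins Krt18 and Krt19 in each RNA library, and right, the summed FPKM of the 4 simple epithelial keratins with the 48 other keratin genes stacked on it. The type I bar is the taller in both AID-null libraries (308 against 104 at 3 weeks), the type II bar in the wildtype 3-week library (155 against 111), and other keratins take most of the wildtype 3-week total.

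Among all 52 keratin genes, the simple epithelial ones made up most of the keratin RNA in AID-null cells. They summed to 412 of 464 FPKM, or 88.9%, in the AID-null 3-week culture and to 266 of 636 FPKM, or 41.8%, in the wildtype 3-week culture. In fibroblasts they summed to 102 of 119 FPKM, or 86.2%, in the AID-null library and to 1.14 of 14.3 FPKM, or 7.98%, in the wildtype library. The other keratins summed to 51.3 FPKM in the AID-null culture and 370 FPKM in the wildtype culture. Of 17 other keratins compared at 3 weeks, 11 were at least 2-fold lower in the AID-null culture, 1 was higher and 5 lay between, with a median of -1.29 on the log2(FPKM + 1) scale against -0.18 for all genes. Under upper-quartile and median-of-ratios scaling 5 type II and 6 type I keratins of these were lower and 1 type I keratin higher, as without them.

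The other keratins that differed most were those of layered and wounded epidermis. Krt6b, a type II keratin of hair follicle and activated keratinocytes, was listed at 0 in the AID-null and at 96.2 FPKM in the wildtype 3-week culture. Its close relative Krt6a was listed at 0 in the AID-null and at 33.3 FPKM in the wildtype 3-week culture, and reads of the pair can be split between them. Krt17, a type I keratin of appendages and wounds, was at 9.42 FPKM in the AID-null and 85.8 FPKM in the wildtype 3-week culture. Krt14, the type I keratin of basal keratinocytes, was at 1.74 FPKM in the AID-null and 17.6 FPKM in the wildtype 3-week culture. All 4 were thus far lower in the AID-null culture, where 3 of the 4 simple epithelial keratins were higher. Krt20, a type I keratin of gut epithelium and Merkel cells, was at 8.86 FPKM in the AID-null and 51.5 FPKM in the wildtype 3-week culture. It was also at 6.71 FPKM in AID-null fibroblasts and listed at 0 in wildtype fibroblasts, as Krt8, Krt18 and Krt19 were. The basal type II keratin Krt5 and Krt14 were listed at 0 in AID-null fibroblasts, and were at 1.67 and 1.62 FPKM in wildtype fibroblasts. Not all epidermal keratins differed at 3 weeks. Krt5 was at 0.550 FPKM in the AID-null and 1.04 FPKM in the wildtype culture, and Krt10 at 4.88 and 5.54 FPKM. Neither was counted as lower. The 15 hair keratins reached 1 FPKM in no library.

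**Figure D3:**
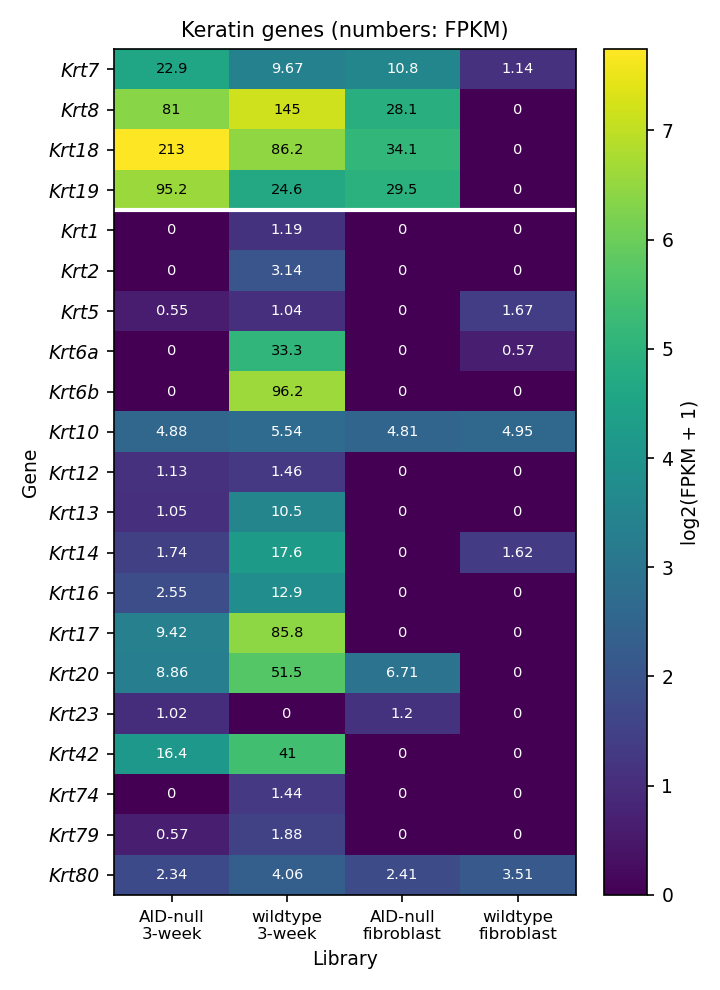
Levels of Krt7, Krt8, Krt18 and Krt19 (above the white line) and of the other keratin genes compared at 3 weeks (below it) in the 4 RNA libraries, with colour for log2(FPKM + 1) and the FPKM printed in each cell. The upper block is filled in 3 libraries and at 0 or 1.14 in wildtype fibroblasts, while Krt6a, Krt6b, Krt14, Krt17 and Krt20 stand out in the wildtype 3-week column.

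Filaments of keratin are anchored at desmosomes and hemidesmosomes by linker proteins, and 17 linker genes were followed beside the keratins. In fibroblasts none of the 9 compared differed 2-fold between AID-null and wildtype, with a median of -0.01. Dsp, the desmosomal plakin that binds keratin, was at 0.750 FPKM in AID-null and 0.830 FPKM in wildtype fibroblasts. Summed over the list, linkers were at 355 FPKM in AID-null and 368 FPKM in wildtype fibroblasts. Most of this was Plec, at 147 FPKM in AID-null and 166 FPKM in wildtype, and Dst, at 92.4 and 98.9 FPKM. Dsp, and Dsg2 at 0.380 FPKM in AID-null and 0 in wildtype, were below 1 FPKM and not among the 9. The linkers compared thus did not differ as the keratins did, and the others were too low to compare. At 3 weeks 2 of 16 linkers were higher and 4 lower in the AID-null culture. Dsg2, a desmosomal cadherin, was at 30.2 FPKM in the AID-null and 92.7 FPKM in the wildtype 3-week culture. Perp, a desmosome assembly protein, was at 83.1 FPKM in the AID-null and 275 FPKM in the wildtype 3-week culture. Pkp2, a plakophilin of simple epithelia and heart, was at 86.5 FPKM in the AID-null and 32.2 FPKM in the wildtype 3-week culture. Against fibroblasts, 12 of 15 linkers were at least 2-fold higher at 3 weeks in AID-null cells and 13 of 16 in wildtype cells.

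Epithelial junction and identity genes were mostly listed at 0 in fibroblasts of both labels. Of 30, 17 were listed at 0 in AID-null and 21 in wildtype fibroblasts. The tight junction genes Cldn3, Cldn4, Cldn6 and Cldn7 and the epithelial regulator Grhl2 were at 0 in both. Of the 11 compared, 5 were higher in AID-null fibroblasts, with a median of 0.45. The one with the most RNA was E-cadherin, Cdh1, at 4.67 FPKM in AID-null and 0.410 FPKM in wildtype fibroblasts. Epcam, an epithelial adhesion protein, was at 1.31 FPKM in AID-null fibroblasts and listed at 0 in wildtype fibroblasts. These levels were well below the 28.1 to 34.1 FPKM of Krt8, Krt19 and Krt18 in the same library. At 3 weeks 26 of 29 were at least 2-fold higher than in fibroblasts in AID-null cells and 28 of 29 in wildtype cells. Between the 3-week cultures 2 of 29 were higher and 3 lower in AID-null, with a median of 0.17. Cldn7 was at 123 FPKM in the AID-null and 33.4 FPKM in the wildtype culture, and Grhl2 at 33.7 FPKM in the AID-null and 99.6 FPKM in the wildtype culture.

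Markers of other cells that carry simple keratins, or that tail cultures could hold, were followed too. Of 13 keratinocyte markers, 8 were listed at 0 in AID-null and 6 in wildtype fibroblasts. The list summed to 24.2 FPKM in AID-null and 28.9 FPKM in wildtype fibroblasts. Its first marker, Trp63, was at 12.6 FPKM in AID-null and 10.6 FPKM in wildtype fibroblasts. Of 8 Merkel cell markers, 5 were listed at 0 in AID-null and 6 in wildtype fibroblasts, Atoh1, which specifies these cells, in both, and the list summed to 24.2 FPKM in AID-null and 8.84 FPKM in wildtype fibroblasts. Of 3 Merkel markers compared, 1 was higher and 0 lower in AID-null fibroblasts, with a median of 0.99. Krt20 was at 6.71 FPKM in AID-null fibroblasts and listed at 0 in wildtype fibroblasts, and Sox2 at 16.1 FPKM in AID-null and 7.61 FPKM in wildtype fibroblasts. Of 8 mesothelial markers, 5 were listed at 0 in AID-null and 4 in wildtype fibroblasts, among them Upk3b, Upk1b and Lrrn4 in both, and the list summed to 14.4 FPKM in AID-null and 9.47 FPKM in wildtype fibroblasts. Msln, a mesothelial surface protein, was at 7.81 FPKM in AID-null and 1.66 FPKM in wildtype fibroblasts. Of 12 trophoblast markers, 8 were at 0 in each fibroblast library, and the list summed to 235 FPKM in AID-null and 233 FPKM in wildtype fibroblasts, most of it Bmp4. The part of such cells in the keratin values was not tested beyond these levels.

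Outside the epithelium, 2 lists were higher together with the keratins in AID-null fibroblasts. Of 16 macrophage markers, 14 were at least 2-fold higher in AID-null fibroblasts, and the list summed to 3464 FPKM in AID-null and 1890 FPKM in wildtype fibroblasts, with no marker at 0 in either. Of 8 muscle markers compared, 6 were higher in AID-null fibroblasts, and the list of 10 summed to 47.8 FPKM in AID-null, with 2 markers at 0, and to 17.7 FPKM in wildtype fibroblasts, with 6 at 0. None of 20 fibroblast markers differed 2-fold. The part of macrophage or muscle RNA in the keratin values was not tested.

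At 3 weeks the AID-null culture had more RNA of fibroblast, smooth muscle, macrophage and some primitive endoderm markers. Of 20 fibroblast markers 13 were higher and 0 lower than in the wildtype culture, and they summed to 22597 FPKM in the AID-null and 7609 FPKM in the wildtype culture. Of 16 macrophage markers 13 were higher, with sums of 1719 FPKM in the AID-null and 643 FPKM in the wildtype culture, and 7 of the 16 were at 0 in the wildtype culture. All 6 smooth muscle and myofibroblast markers compared were higher, with a median of 2.13, and the list of 7 summed to 603 FPKM in the AID-null and 144 FPKM in the wildtype culture. Of 14 markers of primitive and extraembryonic endoderm, tissues that also make Krt8 and Krt18, 4 were higher, 0 lower and 10 between. The list summed to 1584 FPKM in the AID-null and 714 FPKM in the wildtype culture. It also summed to 1857 FPKM in AID-null and 1321 FPKM in wildtype fibroblasts, so the sum is not particular to endoderm. The largest difference was that of Pdgfra, which fibroblasts share, at 283 FPKM in the AID-null and 81.8 FPKM in the wildtype culture. The first markers of the list lay between, Gata4 at 18.7 FPKM in the AID-null and 17.0 FPKM in the wildtype culture, and Gata6 at 11.1 and 6.66 FPKM. Of 12 pluripotency markers 0 were higher and 2 lower, with sums of 9294 FPKM in the AID-null and 10730 FPKM in the wildtype culture. Vimentin, Vim, the filament protein of fibroblasts, was at 9263 FPKM in the AID-null and 2260 FPKM in the wildtype 3-week culture, and at 8672 FPKM in AID-null and 8800 FPKM in wildtype fibroblasts. Other lists of cells that carry keratins were more often lower in the AID-null culture. Of 10 trophoblast markers compared, 0 were higher and 4 lower. They summed to 253 FPKM in the AID-null and 697 FPKM in the wildtype culture, most of it Prl2c2. Of 11 keratinocyte markers 0 were higher and 6 lower, with sums of 139 and 370 FPKM. Of 7 mesothelial markers 1 was higher and 3 lower, and of 5 Merkel cell markers 0 were higher and 2 lower. The part of this mixture in the higher Krt7, Krt18 and Krt19 or the lower Krt8 of the AID-null culture was not tested.

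The genes whose levels over the 4 libraries were most like each keratin were found by Euclidean distance on the log2(FPKM + 1) scale. Krt8, Krt18 and Krt19 were picked on these same values, so their nearness to each other is in part set by the choice. Krt8 and Krt18 were each other's nearest gene of all, at a distance of 1.60. The nearest to Krt19 was Wfdc2, at 1.04, with 94.7 FPKM in the AID-null and 28.5 FPKM in the wildtype 3-week culture, and 14.1 FPKM in AID-null and 0 in wildtype fibroblasts. After it came Krt18 at 2.12 and Krt8 at 2.53. The other 5 nearest to Krt18 were Wfdc2 at 2.30, H19 at 2.59, Mylpf at 2.84, Il11 at 2.92 and Inpp5d at 2.96. For Krt8 they were Mylpf at 2.21, Wfdc2 at 2.51, Inpp5d at 2.72, Il11 at 2.75 and Smagp at 2.87. For Krt19 Pycard at 2.70, Hmha1 at 2.73, Cd37 at 2.77 and E130306D19Rik at 2.78 followed. Krt7, at lower levels, lay far from Krt8 at 4.51 and Krt18 at 4.79, and nearer to Krt19 at 2.95. Its nearest were Lrmp at 0.83, Pik3cd at 1.09, Rapgef5 at 1.14, Vav3 at 1.20 and Ankle1 at 1.38. With 4 libraries these distances describe the libraries only.

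Methylation had no part in the choice of the genes. The RRBS positions are on mm9, for which no genome was used, so the RefSeq window of each promoter was placed on them by the spacing of its CpGs. The window ran from 250 bases before the start to 49 after it. For Krt7 12 of 21 CpGs matched covered positions, against 6 at the next best place, and for Krt18 10 of 17, against 5. That gave chr15:101242584-101242883 for Krt7 and chr15:101858397-101858696 for Krt18 on mm9, and their distance of 615813 bases was the same in both builds. Krt8, with 6 CpGs, could not be placed, and Krt19 was not analysed for methylation here. Of 313 chromosome 15 windows placed by this method, 312 kept the distance to their neighbour within 1000 bases.

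The Krt18 promoter window was methylated at 2.58% or less in every library but that of AID-null fibroblasts. There 8.18% of 795 reads at 7 CpG positions were methylated (95% Wilson interval 6.47 to 10.3), against 0 of 360 reads in wildtype fibroblasts, which allows a level of up to 0.833%. In the 3-week cultures it was 0.647% of 464 reads in AID-null and 1.04% of 1060 reads in wildtype. The AID-null clones were at 0% of 353 reads, which allows up to 0.850%, at 2.58% of 271 reads and at 0.681% of 734 reads. The wildtype clones were at 0% of 767, 1085 and 1077 reads, which allow up to 0.391%, 0.276% and 0.279%. Each read number above is a sum over positions, and a read is counted at each position it covers. AID-null fibroblasts had a median coverage of 91 reads per position, and wildtype fibroblasts of 55. The counts are treated as independent, so the intervals are too narrow and the limits too low. Intervals and limits also cover counting error only, since reads carry no molecular identifiers. Within the window of AID-null fibroblasts the reads were not methylated evenly. The position 117 bases before the start was methylated in 25.6% of 133 reads, and that 93 bases before it in 0 of 194 reads. The library with the higher Krt18 RNA was thus also the one with the higher promoter methylation of the 2 fibroblast libraries.

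The clones gave the 1 comparison with replicates. The Krt18 window was methylated at 1.09% ± 1.34 in AID-null clones and 0% ± 0 in wildtype clones (SD, n = 3 each), a difference of 1.09 points with p = 0.40 in an exact two-sided permutation test, whose smallest possible p is 0.1. Without AID-null clone 2 the difference was 0.34 points. The labels do not say that clones came from separate cultures, so the p-value measures the spread between these clones. The Krt7 window was covered in AID-null clone 3 and wildtype clones 1 and 2 alone, and was not compared. There 0 of 70, 0 of 66 and 0 of 91 reads, summed over 5, 3 and 4 positions, were methylated. Median coverage per position was 15, 22 and 25 reads. A read is counted at each position it covers, so no limit is given for these levels.

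A wider region of 500 bases to each side of the start site, chosen after the data were seen, held 22 positions at Krt7 and 26 at Krt18 that were covered in all 10 libraries. All 22 of Krt7 lay after the start site. There, methylation was 52.8% in AID-null and 49.6% in wildtype fibroblasts, and 29.6% in AID-null and 32.6% in wildtype 3-week cultures. The AID-null clones were at 18.0%, 15.3% and 28.0%, and the wildtype clones at 24.1%, 23.5% and 29.5%. Both genotypes were thus lower at 3 weeks than in fibroblasts. The 95% Wilson intervals were 28.4 to 30.8 in the AID-null and 31.4 to 33.8 in the wildtype 3-week culture. In fibroblasts they were 50.7 to 54.8 in AID-null and 47.7 to 51.4 in wildtype. These intervals cover counting error only and are too narrow, since a read is counted at each position it covers. They do not include the spread between cultures, which is not known, so the difference between stages was not tested.

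The difference of the 3-week culture from fibroblasts at Krt7 was -23.2 points in AID-null and -17.0 points in wildtype cells. Of 308 chromosome 15 promoters placed in the same way, 0.974% in AID-null and 1.30% in wildtype cells were at least 25 points lower at 3 weeks. With reads pooled over positions, Krt7 was not among them. Pooling gives positions with more reads more weight, and the weights differed between stages. The position 358 bases after the Krt7 start had 70 reads in AID-null and 48 in wildtype fibroblasts. At 3 weeks it had 364 reads in AID-null and 545 in wildtype. The difference between stages was not taken as a mean over positions, so its size can depend on this weighting. Most of the 308 promoters had little methylation to lose, with medians of 0.186% to 0.231% over the 4 bulk libraries, and Krt7 was above 97.4% to 98.1% of them. Krt7 RNA and the methylation after its start thus differed in opposite directions between the stages, in both genotypes, in 1 library each. Between genotypes the clones overlapped. They were at 20.4% ± 6.69 in AID-null and 25.7% ± 3.31 in wildtype (SD, n = 3 each), a difference of -5.28 points with p = 0.30 in the exact permutation test.

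Methylation at Krt7 was not even along the gene. In fibroblasts the position 108 bases after the start was at 20.3% of 158 reads in AID-null and 20.8% of 202 reads in wildtype, and that 358 bases after it at 100% of 70 reads in AID-null and 100% of 48 reads in wildtype. At 3 weeks the position at 358 bases was at 53.0% of 364 reads in the AID-null and 51.9% of 545 reads in the wildtype culture. The position at 108 bases was at 14.9% of 249 reads in the AID-null and 26.5% of 132 reads in the wildtype culture. Over the whole region, with both strands of a CpG pooled, 22 CpGs were covered in the 4 bulk libraries. This set is not the same as the 22 positions covered in all 10 libraries. Of these CpGs, 21 of 22 in AID-null and 19 of 22 in wildtype cells were lower in the 3-week culture than in fibroblasts. The CpG at 108 bases was 1 of the 3 exceptions in wildtype.

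**Figure D4:**
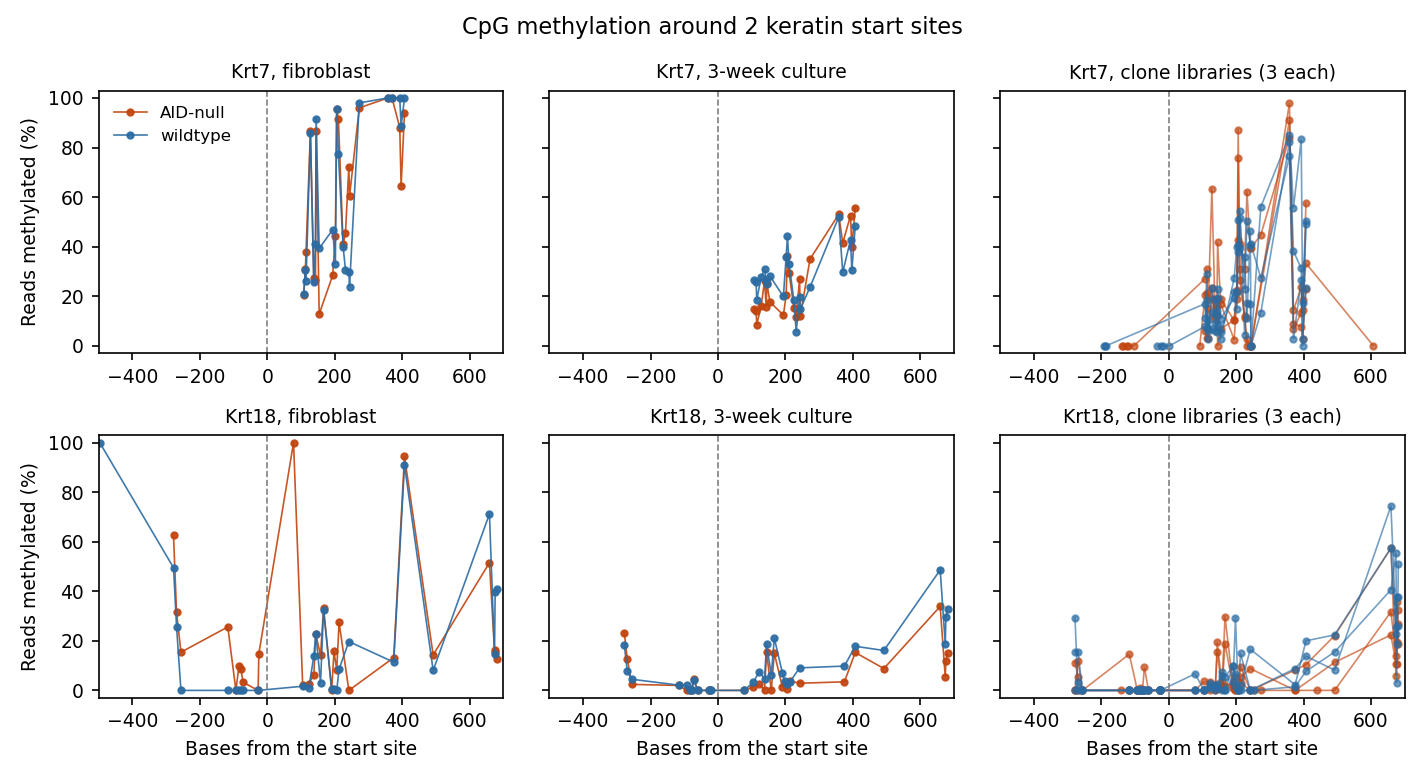
Percent of reads methylated (vertical axis) at each covered CpG position against its distance from the start site in bases (horizontal axis, dashed line at the start site) at Krt7 (top) and Krt18 (bottom), for AID-null and wildtype fibroblasts, 3-week cultures and clones. At Krt7 the positions around 358 bases reach 100% in fibroblasts and stand near 50% at 3 weeks (53.0% and 51.9%), and at Krt18 the AID-null fibroblasts have positions above 0 in the window, such as 25.6% at 117 bases before the start site, where the wildtype fibroblasts are at 0.

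Around Krt18 the region of 26 positions was at 13.3% in AID-null and 6.34% in wildtype fibroblasts, and at 3.14% in AID-null and 5.33% in wildtype 3-week cultures. The AID-null clones were at 0.750%, 1.54% and 3.17%, and the wildtype clones at 3.77%, 2.94% and 3.79%. AID-null fibroblasts stood highest of the 10 libraries. Compared with fibroblasts, the 3-week culture differed by -10.2 points in AID-null and by -1.01 points in wildtype cells over these positions. With every position each library covered, AID-null fibroblasts were at 16.3% and the AID-null 3-week culture at 4.28%. In wildtype these levels were 11.8% and 5.67%, so the size of the wildtype difference rests on which positions enter. Of 23 CpGs covered in the 4 bulk libraries, strands pooled, 18 were lower and 3 higher at 3 weeks in AID-null cells. In wildtype cells 9 were lower and 11 higher. Over the 26 shared positions the clones were at 1.82% ± 1.23 in AID-null and 3.50% ± 0.485 in wildtype (SD, n = 3 each), a difference of -1.68 points with p = 0.20 in the exact permutation test. With every position each library covered, in place of the shared ones, the difference was 1.84 points, so its direction rests on which positions enter. Of 308 chromosome 15 promoters, 13.3% had all 3 AID-null clones below all 3 wildtype clones and 1.95% had them above, and neither Krt7 nor Krt18 was among these.

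**Figure D5:**
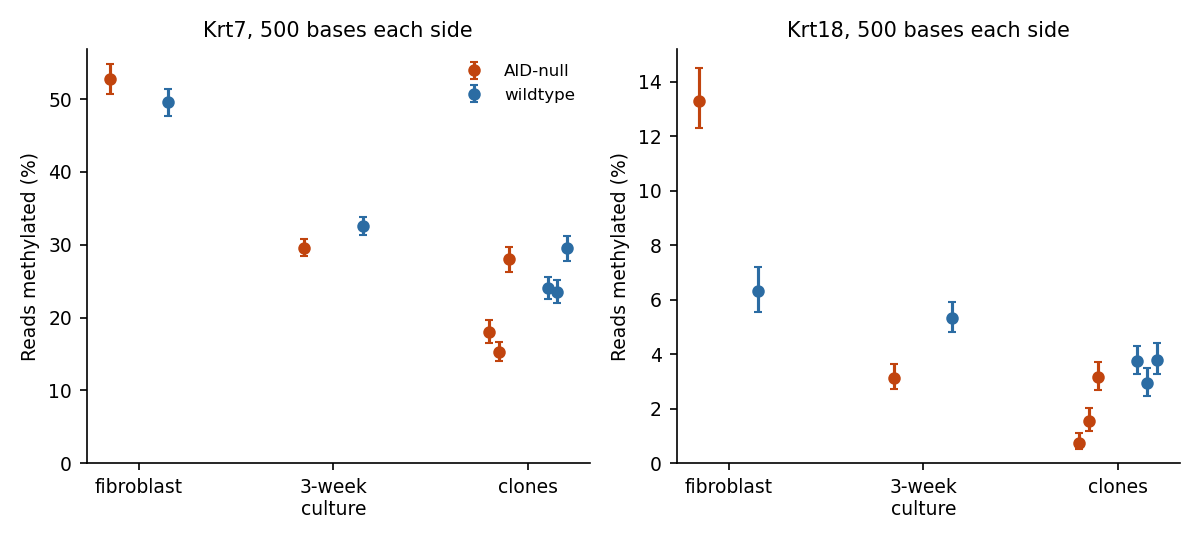
Percent of reads methylated within 500 bases of the start site at Krt7 (left) and Krt18 (right), over positions covered in all 10 libraries, for fibroblasts, 3-week cultures and clones, AID-null left of wildtype in each stage. Each point is 1 library with its 95% Wilson interval, which covers counting error only. The intervals are too narrow, since a read is counted at each position it covers. At Krt7 both fibroblast libraries (52.8% and 49.6%) stand above all 3-week cultures and clones, and the clones of both genotypes overlap.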

How the data were processed

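RNA was measured in 4 libraries and CpG methylation by RRBS in 10 libraries of mouse tail fibroblasts. Per the submitters' processing notes, TopHat, Cufflinks, Bismark and methylKit were used with mm9, and versions are not given in the sources used here. RNA was read from paired ends and RRBS from single ends, per the labels. The deposited RNA tables give FPKM per gene, normalised by the authors. Low values shared no common step, so read depth could not be recovered and count models were not run. The deposited RRBS tables give, per the file headers, a read count of coverage for each CpG cytosine and the percent methylated, with at least 10 reads per position. Coverage summed to 222945430 to 296572452 reads over 1659832 to 2154007 positions per library.

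RNA differences were taken on log2(FPKM + 1), which understates low genes, and counted at 1 or more among genes with 1 FPKM in either library. Upper-quartile and median-of-ratios scaling, pseudocounts of 0.1 and 10 and no filter were tried as alternatives. Methylated reads were pooled over the CpG cytosines of a window, so a read is counted at each cytosine it covers. Clones were compared by exact permutation. Samples were grouped by title. Clone numbers did not pair the clones (correlations of deviations 0.01, -0.01 and 0.03 over 64811 positions of chromosome 15). The placing of windows was checked on 100 simulated windows, of which 69 were placed, all 69 rightly. A window was placed with at least 8 matched CpGs and a lead of at least 4. Gene names and sequences are from RefSeq tables of GRCm38.p6, and 99.0% of 22026 symbols matched.

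The members and gene lists were chosen with earlier results of these data known. Named were the 4 keratins, up to 4 genes per list with the largest difference, the defining markers of other cell types in list order, the 5 genes nearest to each keratin, and all genes listed at 0 in wildtype fibroblasts that reached the Krt8 level in AID-null fibroblasts. Vim and Dsp in fibroblasts, Lrrn4 and the single CpG positions were chosen after their values were seen. The values of 1 gene that bears on the genotype labels are not reported here. Computations used Python 3.11.15, numpy 2.4.6, pandas 2.3.3, scipy 1.17.1 and matplotlib 3.10.9.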

Additional observations from a re-analysis of the deposited data

Results flagged for a closer look

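In each of the following, the difference between AID-null and wildtype, or between stages, had opposite signs in 2 settings. There was 1 library per group, so the difference between the settings was not tested.

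Krt8 RNA was at 28.1 FPKM in AID-null and 0 in wildtype fibroblasts, but at 81.0 FPKM in the AID-null and 145 FPKM in the wildtype 3-week culture. Of the 4 keratins it is the 1 whose order between genotypes turned.

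Methylation after the Krt7 start site differed between AID-null and wildtype by 3.20 points in fibroblasts and by -3.04 points in 3-week cultures.

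Over the 6 shared positions of the Krt18 promoter window, AID-null minus wildtype was 7.88 points in fibroblasts and -0.539 points in 3-week cultures. The 3-week culture minus fibroblasts was -7.18 points in AID-null and 1.24 points in wildtype cells. Over the 26 positions of the wider Krt18 region, AID-null minus wildtype was 7.01 points in fibroblasts and -2.19 points in 3-week cultures.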

How the results depend on the processing

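The counts of keratins at least 2-fold higher or lower in the 4 RNA comparisons kept their values under both other scalings, a pseudocount of 0.1 and no filter. With a pseudocount of 10 the number higher was 3 in place of 4 between fibroblasts, 2 in place of 3 between 3-week cultures, and 3 in place of 4 between stages in each genotype, and none was lower. Krt7 was the keratin no longer counted, since its difference moved to 0.90 between fibroblasts, 0.74 between 3-week cultures, 0.66 between stages in AID-null and 0.82 between stages in wildtype cells. The clone difference around Krt18 reversed, to 1.84 points, when all positions of each library were used (5.49% in AID-null and 3.66% in wildtype clones, exact permutation p = 0.30), and the cause was not tested. Leaving out each clone in turn gave 0.34 to 1.63 points for the Krt18 window, -9.06 to -2.72 points for Krt7 and -2.36 to -1.15 points for the wider Krt18 region. The lowest of these for Krt18 was without AID-null clone 2, and the extremes for Krt7 were without AID-null clone 3 and without AID-null clone 2. As the mean over positions, the Krt7 difference was -1.99 points. With a replicate block, the differences stayed at 1.09 points for the Krt18 window (exact sign-flip p = 0.50), -5.28 points for Krt7 (p = 0.25) and -1.68 points for the wider Krt18 region (p = 0.25, the smallest this test can give), and the numbers did not pair the clones. Each RNA value rests on 1 library of unknown depth, so an FPKM of 0 sets no limit on a level.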
